A study of Mus musculus with 6 samples.

Results

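PD0325901 (PD), which inhibits the kinase MEK, was given together with CHIR99021 (CHIR), which inhibits GSK3, in 2 states of mouse pluripotent cells, and the difference between the responses of the 2 states is described gene by gene. The study hybridised 6 RNA samples to Affymetrix Mouse Gene 2.0 ST arrays, and the comparison was built from 4 of these. They were mESC (mouse embryonic stem cells of the EB3 line, kept in N2B27 medium with LIF and BMP4) and EpiLC (epiblast-like cells, made from EB3 mESC in 2 days of N2B27 containing Activin A at 20 ng/ml and bFGF at 12 ng/ml, on a serum-coated surface), each treated for 24 hours either with 3 µM CHIR alone or with 3 µM CHIR and 1 µM PD. The other 2 arrays, of untreated mESC and untreated EpiLC, served as context only. Their treatment time was 0 hours, so they may differ from the treated arrays in time of culture as well. All 4 cultures of the comparison contained CHIR, so the response to PD alone was not measured, and the labels do not say how the 24 hours lay within the induction. All cells came from 1 line and each of the groups was 1 array. Cell state and medium differed together, with LIF and BMP4 for mESC and Activin A and bFGF for EpiLC. Their parts in any difference between the states therefore cannot be told apart.

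For each of 22180 genes the log2 intensity with CHIR was subtracted from that with CHIR and PD in each state, and the mESC response was then subtracted from the EpiLC response. A positive value of this difference of responses means that the gene went up more, or down less, in EpiLC than in mESC when PD was added. With 1 array for each group the value has no error and no test is possible, so sizes alone are given, with a difference of responses of at least 2-fold (1 on the log2 scale) counted as past the limit. "Went from" is used below for the intensity, in the deposited linear units, with CHIR and then with CHIR and PD. Because whole cultures were measured, fewer cells of one type and less RNA per cell cannot be told apart for any gene.

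MEK activates the kinases ERK1 and ERK2, which carry the signal of fibroblast growth factors to the nucleus and induce Ets transcription factors together with their own inhibitors, the Sprouty proteins and dual-specificity phosphatases. In mouse embryonic stem cells this signal drives the exit from naive pluripotency, and MEK and GSK3 inhibitors are used together to hold the naive state. In the epiblast, fibroblast growth factor, Wnt and Nodal signals act together to form the primitive streak and mesoderm, and GSK3 inhibition mimics the Wnt signal.

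The 6 arrays had median intensities of 60.5 to 65.2 and a lowest value of 16 each, and their number limits the precision of every value. The highest intensity was 22997.5 on the EpiLC array with CHIR and between 9894 and 10197 on each of the others. Among naive genes, Esrrb was at 467 and 524 on the mESC arrays against 21.4 and 33.7 on the EpiLC arrays, and Tbx3 at 983 and 1165 against 45.2 and 44.9. The epiblast markers Fgf5 and Otx2 were at 770.0 and 309.7 in EpiLC with CHIR. On the array labelled EpiLC with CHIR and PD they were at 39.4 and 59.0. These values were close to the mESC ones of 35.6 and 56.2 with CHIR. Otx2 was at 1025 in untreated EpiLC and also at 410.5 in untreated mESC. It thus separates the states less well than Fgf5, which was at 36.0 in untreated mESC. Other epiblast markers did not fall to the mESC level in this way. In EpiLC, Pou3f1 went from 123 to 145 and Sall2 from 128 to 147. Dnmt3b was alike in EpiLC and mESC, at 1279 and 1289 with CHIR and at 788 and 817 with CHIR and PD. Of 11 fibroblast markers, 0 had a difference of responses of at least 2-fold, against 2.57% of all genes (median 0.12, and 0.82 without genes under 64 on all 4 arrays). Their summed intensity went from 835 to 1283 in mESC and from 1125 to 3172 in EpiLC. Tagln went from 154 to 408 in mESC and from 343 to 1607 in EpiLC, Acta2 from 246 to 427 and from 253 to 845, and Col1a1 from 80.8 to 101 and from 165 to 370.3. The fibroblast genes Lum, Dcn and Postn were at 18.5 to 42.7 on all 4 arrays, below the array medians, and the part of the list in other results was not tested.

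The responses of the 2 states differed by at least 2-fold for 569 of 22180 genes, which is 2.57% of all genes. For 320 genes (1.44%) the response was higher in EpiLC and for 249 (1.12%) it was lower. At 4-fold these counts were 55 (0.248%) and 44 (0.198%). The quartiles over all genes were -0.21 and 0.20, and the median difference of responses was -0.006. Within mESC, 56 genes (0.252%) were at least 2-fold higher with PD and 116 (0.523%) lower, and within EpiLC 230 (1.04%) were higher and 225 (1.01%) lower. Among the 249 lower genes, 132 were at least 2-fold lower with PD in EpiLC and moved less than 2-fold in mESC, and 30 were at least 2-fold higher in mESC and moved less than 2-fold in EpiLC. Among the 320 higher genes, 133 were at least 2-fold higher in EpiLC alone and 45 at least 2-fold lower in mESC alone. Neither response reached 2-fold for 135 of the higher and 78 of the lower genes, which passed the limit because the 2 small responses had opposite signs. At the limit itself, Septin1 and Cobll1 lay just inside (1.0001 and -1.002) and Epb41l1 and Zbtb10 just outside (0.9998 and -0.9987).

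Of the 249 lower genes, 74 were under an intensity of 64 on both mESC arrays, as were 64 of the 320 higher genes and 8898 of all 22180. Of the 320 higher genes, 106 were under 64 in EpiLC with CHIR. On all 4 arrays 29 of the higher and 27 of the lower genes were under 64, and such genes are the least certain.

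**Figure D1:**
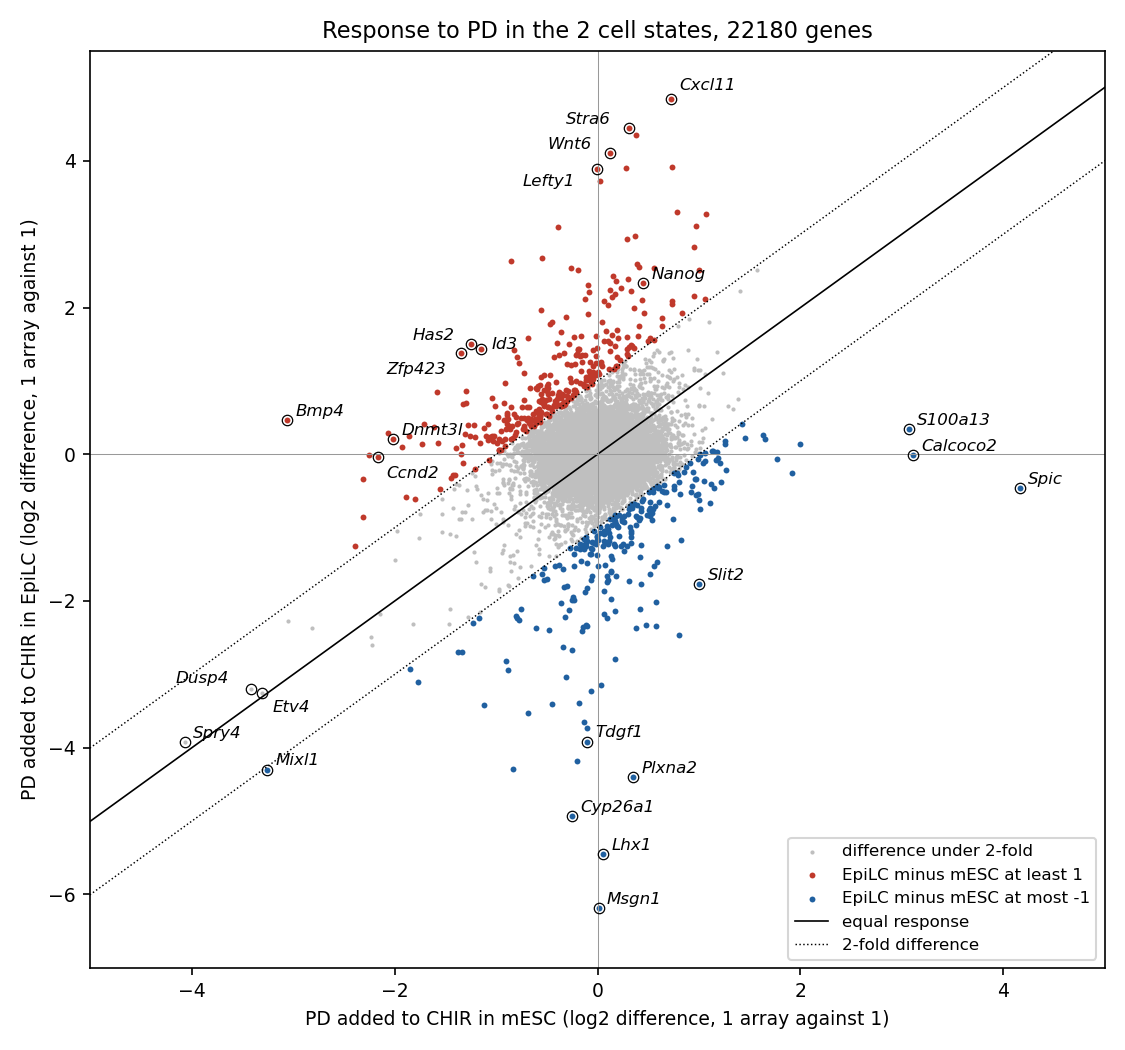
Each point is 1 of 22180 genes, with the log2 difference between CHIR with PD and CHIR alone in mESC on the horizontal axis and in EpiLC on the vertical axis. Red and blue points differ by at least 2-fold between the states (320 and 249 genes). Spry4 (-4.07 and -3.92) lies near the line of equal response, whereas Msgn1 (0.01 and -6.19) and Spic (4.16 and -0.46) lie along opposite axes.

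Feedback genes of ERK signalling were among those lower with PD in both states. Of 14 ERK feedback inhibitors, 6 were at least 2-fold lower with PD in both states, against 34 of all genes (0.153%), and 12 of the 14 had a difference of responses under 2-fold, as had 21611 of all 22180 genes (median -0.02, all genes -0.006). Spry4, a Sprouty protein that blocks receptor signalling, went from 608 to 36.2 in mESC and from 338 to 22.3 in EpiLC, a difference of responses of 0.15. Dusp4, a phosphatase of MAP kinases, went from 552 to 51.5 and from 930.2 to 101 (difference 0.22). Etv4, an Ets transcription factor of the PEA3 group, went from 262 to 26.5 and from 226 to 23.6 (difference 0.05). In each of the 3 genes both arrays with PD lay below both arrays with CHIR alone. Etv4 with PD in both states and Spry4 with PD in EpiLC were below the lower quartile of their array (34.7 in mESC and 32.5 in EpiLC). This close to the lowest intensity of 16 the size of a fall is uncertain, so equal responses cannot be read from these differences.

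A few ERK readouts had a lower response in EpiLC. Spry2 went from 731 to 290.3 in mESC and from 446 to 68.6 in EpiLC (difference -1.37). Spred3, a membrane-bound inhibitor of the Ras to ERK step, had a difference of -1.09. Egr1, an early response transcription factor, went from 87.6 to 25.7 in mESC and from 276 to 32.1 in EpiLC, so that it started higher in EpiLC and ended at a similar level. Of 16 ERK-induced transcription factors and early genes, 2 were lower by at least 2-fold (1.12% of all genes), Egr1 (-1.33) and Etv1 (-1.32), and 0 were higher (1.44% of all genes). Etv1 is an average of 2 probes that disagreed, with differences of -0.02 and -2.62. With a constant of 64, meaning that all intensities of an array were shifted so that the lowest was 64 and not 16, Spry2 and Etv1 dropped below the limit (-0.88 and -0.87).

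Only 4 genes (0.018% of 22180) went at least 2-fold in opposite directions, and 3 of them were lower in mESC and higher in EpiLC. Id3, an inhibitor of basic helix-loop-helix factors and a target of BMP signalling, went from 425 to 192 in mESC and from 70.1 to 190.3 in EpiLC. The states were thus far apart with CHIR and at the same level with PD, and the difference of responses was 2.59. Has2, which makes the matrix polysaccharide hyaluronan, went from 158 to 66.3 in mESC and from 265 to 748 in EpiLC (difference 2.75). Zfp423, a zinc finger cofactor of the BMP-activated SMAD proteins, began at the same level in both states (181 in mESC and 188 in EpiLC) and parted to 71.4 and 489 (difference 2.72). Slit2, a secreted guidance protein of the Robo receptors, went the other way, from 97.5 to 195 in mESC and from 264 to 77.2 in EpiLC (difference -2.77), and its mESC response of 1.001 lay at the limit.

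Without inhibitors, Id3 was at 503 in mESC and 63.1 in EpiLC, Has2 at 182 and 321, and Zfp423 at 315 and 243, so for Id3, Has2 and Zfp423 the arrays with CHIR alone were within 2-fold of the untreated arrays of their state. For Slit2 the untreated values were 80.6 in mESC and 49.3 in EpiLC, and in EpiLC it was high on the CHIR array alone. Opposite directions were just missed by Cdx2 (-1.30 in mESC and 0.86 in EpiLC), Pla2g7 (-0.86 and 2.64), Htr1b (-1.58 and 0.84), Fgfbp3 (-0.83 and 1.41), Lama1 (0.82 and -1.17) and Dkk1 (0.80 and -2.46). The count of 4 rests on the scale. It was 17 with all intensities shifted from a lowest value of 16 to one of 4, and 0 with a shift to 64. With both shifts each of the 4 genes kept a difference of responses of at least 2-fold. Its direction could not change, because the same shift of all arrays keeps the sign of each response. The shift to 4 could only enlarge the difference.

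**Figure D2:**
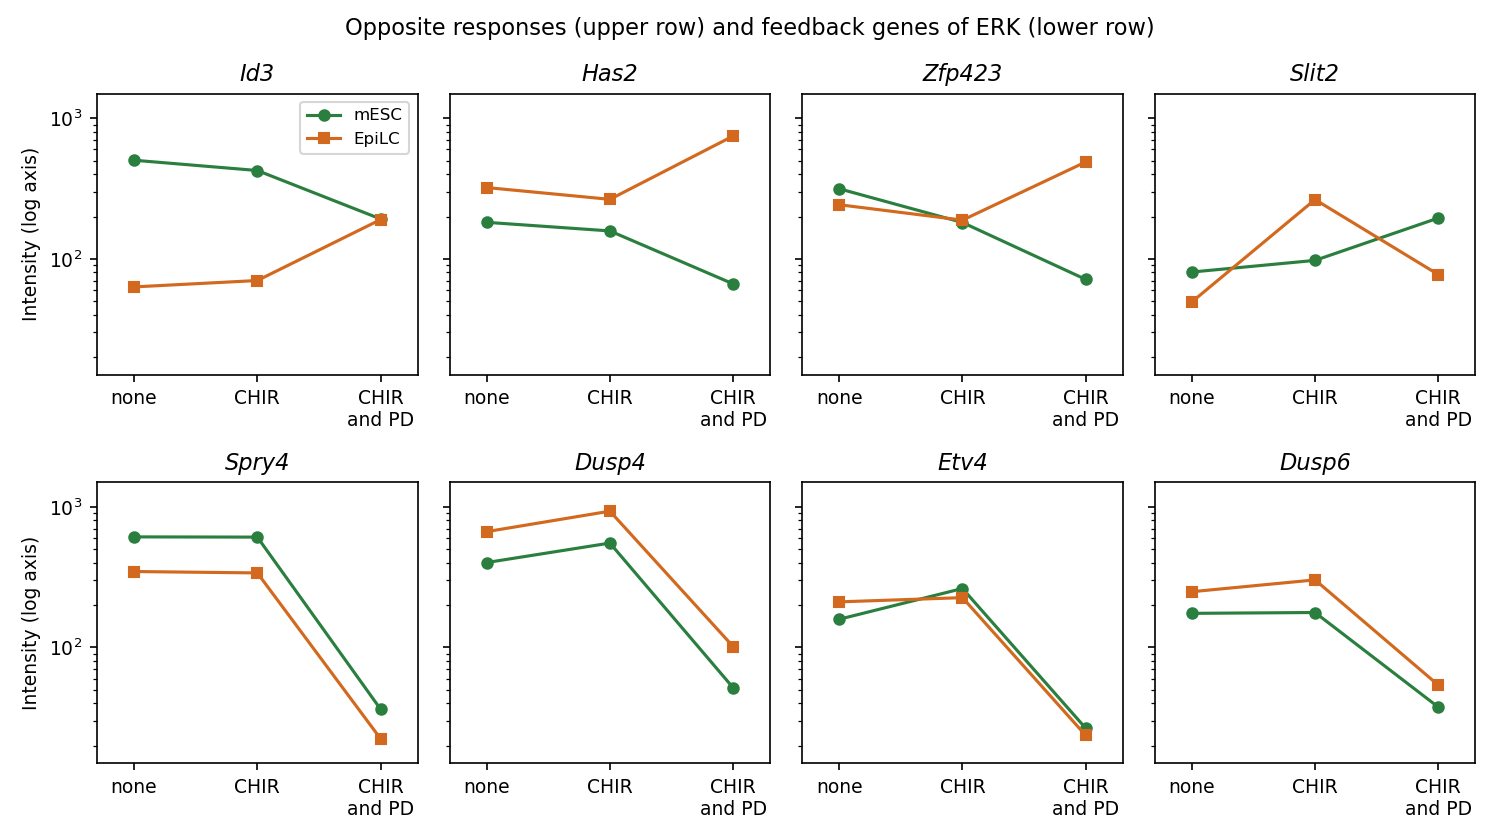
Intensity on a log axis in untreated cells, with CHIR and with CHIR and PD, 1 array per point, for mESC (green circles) and EpiLC (orange squares). In the upper row the lines of the 2 states run in opposite directions from CHIR to CHIR and PD, and in the lower row the ERK feedback and target genes run down together, as for Spry4 to 36.2 and 22.3.

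The lowest differences of responses included mesoderm genes that were lower with PD in EpiLC and near the array median or below it in mESC. Msgn1, which specifies presomitic mesoderm as a transcription factor, went from 3768 to 51.7 in EpiLC and from 55.7 to 56.1 in mESC, the lowest difference of responses of any gene (-6.20). Only the EpiLC array with CHIR stood out, as untreated EpiLC were at 65.2. Lhx1, a homeobox factor of the streak and its derivatives, went from 2121 to 48.6 in EpiLC and from 43.8 to 45.5 in mESC (difference -5.50). Foxc1, a forkhead factor of paraxial mesoderm, went from 1164 to 64.1 in EpiLC and from 81.0 to 70.3 in mESC (-3.98), and Tbx6, a T-box factor that directs cells to paraxial mesoderm, had a difference of -3.63. Of 16 presomitic mesoderm genes, 8 had a lower response in EpiLC by at least 2-fold and 0 a higher one (median -0.72), where 1.12% of all genes were lower.

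The promoters of 2 genes at the ends of the comparison are shown, Msgn1 as the gene with the lowest difference of responses and Bmp4 as that with the highest among genes past 2-fold in mESC alone, together with that of Id3, which went in opposite directions. Each sequence is the 250 bases before the RefSeq start of the gene on build GRCm38.p6, written 5′ to 3′ on the strand of the gene, with matches in capitals to any of 4 short motifs on either strand, namely ATCAAAG (Tcf/Lef), GGTGTGA (T-box), CCGGAAG (Ets) and GGCGCC (Smad1/5).
Msgn1, chr12:11208949-11209198, minus strand: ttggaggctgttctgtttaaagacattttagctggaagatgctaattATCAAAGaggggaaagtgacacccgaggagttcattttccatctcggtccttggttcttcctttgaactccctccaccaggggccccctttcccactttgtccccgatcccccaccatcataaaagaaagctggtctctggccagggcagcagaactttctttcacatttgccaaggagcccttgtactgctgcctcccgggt
Bmp4, chr14:46390670-46390919, minus strand: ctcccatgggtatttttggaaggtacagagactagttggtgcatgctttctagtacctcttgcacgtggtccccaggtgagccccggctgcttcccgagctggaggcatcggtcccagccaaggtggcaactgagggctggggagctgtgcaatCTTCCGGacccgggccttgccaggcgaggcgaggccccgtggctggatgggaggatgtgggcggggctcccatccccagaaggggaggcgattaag
Id3, chr4:136143572-136143821, plus strand: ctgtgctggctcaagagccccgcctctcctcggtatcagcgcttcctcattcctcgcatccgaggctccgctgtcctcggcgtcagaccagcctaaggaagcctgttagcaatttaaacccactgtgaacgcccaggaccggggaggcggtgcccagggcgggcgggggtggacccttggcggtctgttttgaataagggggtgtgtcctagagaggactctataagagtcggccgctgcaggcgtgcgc
The Msgn1 window held 1 Tcf/Lef match, whose first base lay 203 bases before the start, and 3.21% of 32851 promoter windows of the same length held one. Such a match was also found in a window of Stra6 and in that of Ephx3, whose differences of responses were positive (4.14 and 3.62). The Bmp4 window held 1 Ets match on the opposite strand, 96 bases before the start, against 6.91% of all windows. The Id3 window held 0 matches to the 4 motifs, and the T-box and Smad1/5 letters occurred in 3.33% and 9.59% of all windows. A match describes letters only, since binding was not measured.

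The primitive streak and mesendoderm list had the lowest median of the 32 lists. Of 17 measured genes, 11 had a lower response in EpiLC by at least 2-fold and 1 a higher one, against 1.12% and 1.44% of all genes. The median was -1.28 (-0.006 over all genes), and 8 of the 17 were under 64 on both mESC arrays. Aplnr, the apelin receptor of early mesoderm, went from 4485 to 356 in EpiLC and from 42.8 to 38.9 in mESC (-3.52). Cer1, a secreted antagonist of Nodal, BMP and Wnt, had a difference of -3.18 and Pdgfra, a growth factor receptor of mesoderm and primitive endoderm, one of -2.96. Eomes, a T-box factor of the streak, went from 389.9 to 33.7 in EpiLC and was already at 345 in untreated EpiLC, whereas in mESC it went from 57.0 to 35.5 (-2.85).

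The other members of the streak list were not uniform. Mixl1, a homeobox gene of the streak, went from 321 to 33.6 in mESC (-3.26) and from 3378 to 172 in EpiLC (-4.30), so its difference of -1.04 lay near the limit. Fgf8, a growth factor of the streak and itself a ligand that activates ERK, was the 1 gene of the list with a higher response in EpiLC, going from 286 to 533 there and from 41.3 to 26.1 in mESC (1.56). Wnt3, a Wnt ligand of the streak, lay just under the limit, from 322 to 404 in EpiLC and from 87.3 to 56.9 in mESC (0.94). Nodal (0.13), Hhex (-0.23), Sox17 (-0.60) and Foxa2 (-0.67) were also within 2-fold. Fgf5, the epiblast ligand of the same family, went from 770.0 to 39.4 in EpiLC and from 35.6 to 19.9 in mESC (-3.45). Of 12 FGF ligands and receptors it was the only one at least 2-fold lower (1.12% of all genes), while Fgf8 and Fgf18 (1.36) were higher (1.44% of all genes).

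Other genes with the lowest values likewise went down in EpiLC. Plxna2, a semaphorin receptor, went from 730.1 to 34.7 in EpiLC and from 48.6 to 62.0 in mESC (-4.75). Cyp26a1, which degrades retinoic acid, went from 917 to 29.9 and from 34.4 to 28.9 (-4.68). Cd36, a receptor and transporter of fatty acids, had a difference of -3.21, and Frzb, a secreted Wnt antagonist, one of -3.16. For Plxna2, Cyp26a1, Cd36 and Frzb the EpiLC array with PD was at 34.7, 29.9, 39.4 and 35.1, levels below the array median.

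Tdgf1 differed from these genes in being high in both states before PD. It encodes Cripto, the co-receptor of Nodal, and went from 2341 to 2171 in mESC but from 2354 to 156 in EpiLC (-3.81). With CHIR alone its level was nearly equal in the 2 states. Dkk1, a Wnt inhibitor that Wnt signalling induces, was also well above the array median in both states, going from 355 up to 619.8 in mESC and from 559 down to 101 in EpiLC (-3.27).

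Genes with a much higher response in EpiLC formed a varied group. Stra6, the membrane receptor for retinol uptake, had the highest difference of responses of any gene (4.14), going from 62.2 to 1356 in EpiLC and from 50.4 to 62.4 in mESC. The chemokine genes Cxcl11 and Cxcl10, ligands of the receptor Cxcr3, had differences of 4.12 and 3.18. Cxcl11 went from 36.7 to 1055 in EpiLC and from 25.1 to 41.6 in mESC. Wnt6, a Wnt ligand, went from 81.1 to 1396 in EpiLC and from 61.7 to 67.3 in mESC (3.98). The EpiLC array with CHIR and PD was the only high one of all 6 for Stra6, Cxcl11 and Wnt6, since untreated EpiLC were at 45.3, 44.1 and 59.97.

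The highest 15 also held genes of other roles. Sox1, an early neural transcription factor, went from 43.2 to 885 in EpiLC and from 49.2 to 64.01 in mESC (3.98). Of 16 neural genes, 2 had a higher and 1 a lower response, against 1.44% and 1.12% of all genes (median -0.07). Cda, a cytidine deaminase of nucleotide salvage, had a difference of 3.71, Ephx3, an epoxide hydrolase, one of 3.62, Fgfbp1, a secreted carrier of fibroblast growth factors, one of 3.48 and Actc1, the cardiac actin, one of 2.81. Pla2g7, a secreted phospholipase, went from 50.8 to 316 in EpiLC and from 61.7 to 34.1 in mESC (3.496). Mup6 belongs to a family of near-identical genes, so its difference of 3.22 is uncertain. Its level was 19.1 in EpiLC with CHIR, near the lowest intensity of 16, against 122 with CHIR and PD and 107 in untreated EpiLC.

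**Figure D3:**
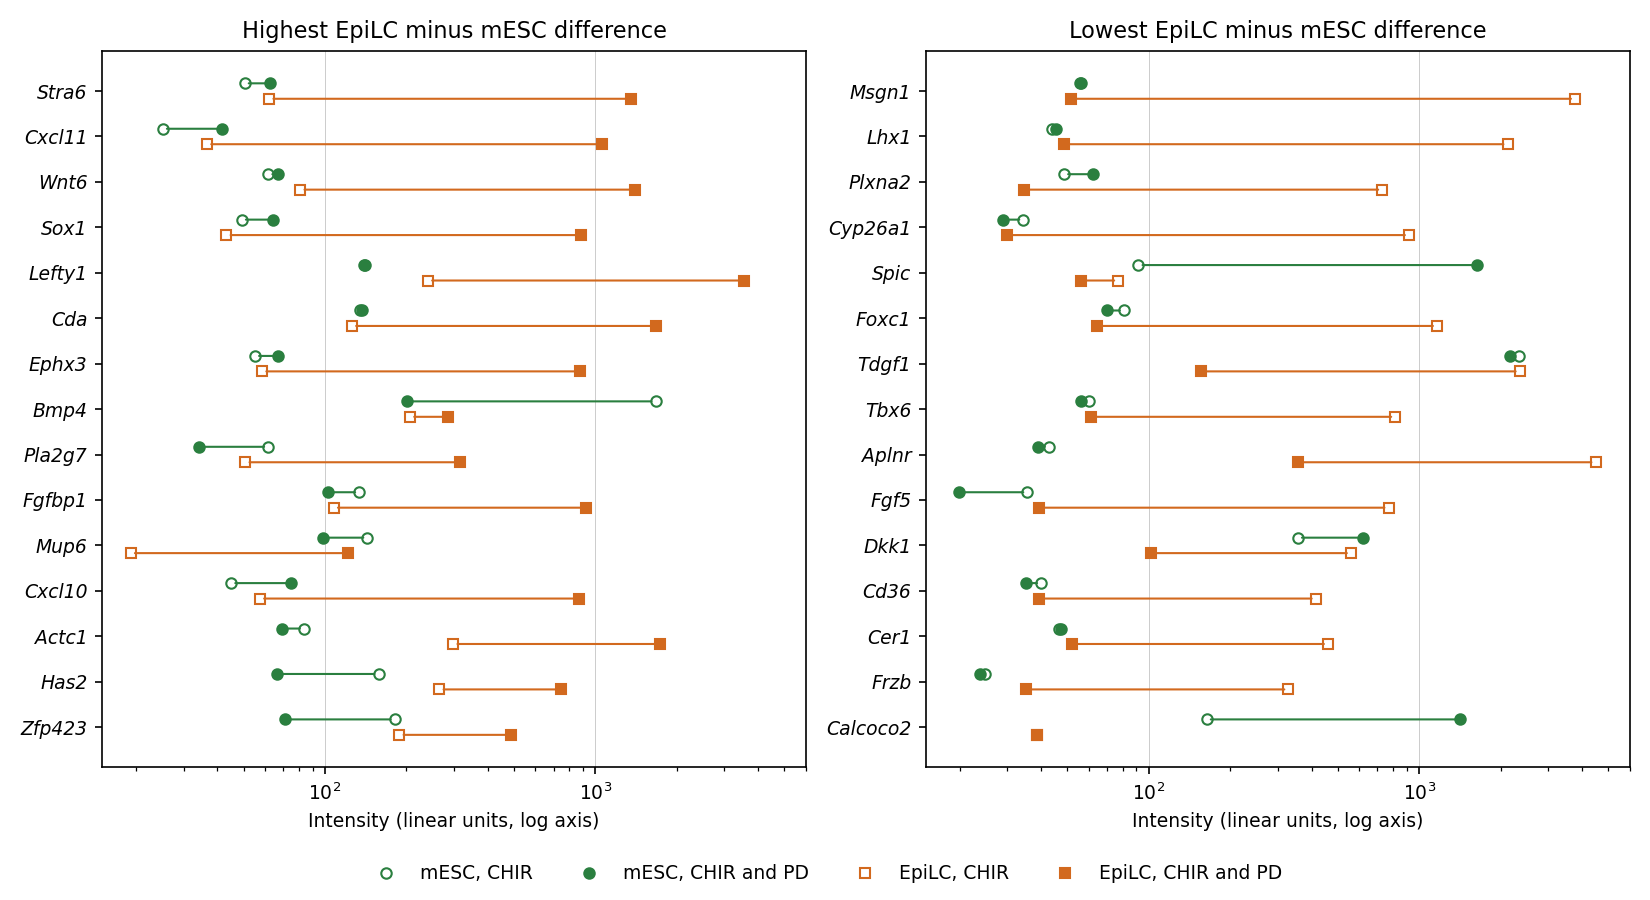
Intensity on a log axis of the 15 genes with the highest (left) and the 15 with the lowest (right) difference of responses, 1 array per symbol, with open symbols for CHIR and filled symbols for CHIR and PD, green for mESC and orange for EpiLC. In 14 of the 15 genes on the left the filled EpiLC symbol lies at least 2-fold to the right of the open one, the exception being Bmp4 (206 and 285), and on the right Spic and Calcoco2 are the genes whose mESC symbols lie at least 2-fold apart.

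Responses confined to mESC by the 2-fold limit were fewer and included several large ones. Bmp4, the ligand that is also added as protein to the mESC medium, went from 1670.2 to 200.2 in mESC and from 206 to 285 in EpiLC (3.53), so that mESC with PD were near the level of EpiLC with CHIR. Spic, an Ets family transcription factor gene, went from 91.5 to 1638 in mESC and from 77.1 to 55.9 in EpiLC (-4.63). The untreated arrays were at 785 in mESC and 72.4 in EpiLC, so mESC with CHIR alone were the low ones of that state. Calcoco2, an autophagy receptor, went from 164 to 1412 in mESC while EpiLC were at 38.6 and 38.4 (-3.12). S100a13, a small calcium-binding protein, went from 87.5 to 734 in mESC and from 52.6 to 66.7 in EpiLC (-2.73).

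Further genes lower with PD in mESC were Dnmt3l, Enox1, Mymx, Htr1b and Cdx2. Dnmt3l, the cofactor of the de novo DNA methyltransferases, went from 484 to 119 in mESC and was at 36.7 and 42.5 in EpiLC (2.23). It was the only one of 9 DNA methylation genes past the limit, against 2.57% of all genes, and Dnmt3b had responses of -0.66 in mESC and -0.70 in EpiLC. Enox1, a cell surface oxidase gene, went from 1099.8 to 230.2 in mESC (2.24), and Mymx, which encodes a membrane micropeptide of myoblast fusion, from 888 to 212 (2.35). Htr1b, a serotonin receptor, had a difference of 2.43. Hesx1, a homeobox gene of the anterior epiblast and pituitary, Mobp, a myelin protein gene, and Pga5, a pepsinogen gene, were higher with PD in mESC alone, with differences of -2.17, -1.86 and -1.83. For Dnmt3l, Enox1, Mymx, Hesx1 and Pga5 the EpiLC arrays with CHIR and with CHIR and PD lay between 33.8 and 90.0, while untreated EpiLC were at 131 for Dnmt3l and 145 for Enox1.

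A subset kept a high level in EpiLC and went down in mESC from a level that was also well above the median. Gja1, the gap junction protein connexin 43, was at 1171 and 1171 with CHIR in mESC and EpiLC and at 308 and 1250.4 with PD (2.02). Slc7a7, a cationic amino acid transporter, was at 782 and 777 with CHIR and at 157 and 615 with PD (1.98). Both genes were named after their values had been seen. Ccnd2, a D-type cyclin, went from 214 to 47.8 in mESC and from 992 to 969 in EpiLC (2.13). Cdk6, a kinase partner of the D-type cyclins, went from 348 to 143 and from 316 to 418 (1.68). Among 14 cell cycle inhibitors and G1 cyclins, a list that holds Cdk6 as their partner, Ccnd2 and Cdk6 were the genes past the limit. Of all genes 2.57% were past it.

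Among BMP pathway genes the differences were uneven. Of 13 BMP target genes, 3 had a higher response in EpiLC by at least 2-fold and 0 a lower one, where 1.44% of all genes were higher, yet the median was -0.16, with 6 of the 13 above 0. Besides Id3, they were Id1, an inhibitor of the same family, which went from 989 to 399 in mESC and from 119 to 144 in EpiLC (1.59), and Msx2, a homeobox gene, which went from 22.3 to 53.0 in EpiLC and from 179 to 183 in mESC (1.22). Msx2 in EpiLC was close to the lowest intensity and its difference became 0.50 with a constant of 64. Id2, another member of the family, had responses of -1.02 in EpiLC and -0.30 in mESC (-0.72), so the Id genes did not share 1 direction. Of 20 BMP ligands, receptors, antagonists and cofactors, 2 were higher (Bmp4 and Zfp423) and 2 lower, against 1.44% and 1.12% of all genes. The lower ones were the ligands Bmp8b (-1.27) and Bmp7, which went from 577 to 257 in EpiLC and from 138 to 137 in mESC (-1.16).

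In the Activin and Nodal pathway 15 of 17 measured genes had a difference under 2-fold, as had 21611 of all 22180 genes. The other 2 were among the most extreme of the comparison. Lefty1, a secreted inhibitor of Nodal that Nodal signalling induces, went from 240.4 to 3548 in EpiLC and was at 140.2 and 139.8 in mESC (3.89). Tdgf1, described above, was its opposite. Nodal itself went from 171 to 241 in mESC and from 374 to 579 in EpiLC (0.13), and Lefty2 had a difference of 0.29.

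Pluripotency genes differed among themselves. Nanog went from 496 to 2498 in EpiLC and from 2179.6 to 2969 in mESC (1.89), and Sox2 from 106 to 302 in EpiLC and from 1459.6 to 1584 in mESC (1.39). Nanog and Sox2 were the 2 of 12 core pluripotency genes past the limit, against 2.57% of all genes, and the median difference of the list was 0.08. The median response of the core genes was -0.46 in EpiLC and -0.32 in mESC, and Utf1, a chromatin factor of pluripotent cells, was lower with PD in both states, from 2021 to 287 in mESC and from 473 to 91.7 in EpiLC. Pou5f1, which encodes Oct4, went from 1234 to 1121 in mESC and from 881 to 558 in EpiLC (-0.52). Of 16 naive genes, 3 had a higher response in EpiLC and 0 a lower one, against 1.44% and 1.12% of all genes. Klf2, a Krüppel-like factor, went from 67.4 to 307 in EpiLC against 1540.3 and 1732 in mESC (2.02), Nr0b1 had a difference of 1.23 and Tfcp2l1 one of 1.11. With PD in EpiLC, Nr0b1 was at 51.4 and Tfcp2l1 at 151, against 1467 and 1884 in mESC, and the differences of Nr0b1 and Tfcp2l1 became 0.56 and 0.48 with a constant of 64. Prdm14, a naive factor that represses FGF receptor signalling, leaned the other way, from 125 to 238 in mESC and from 36.6 to 36.0 in EpiLC (-0.95).

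Formative epiblast genes split. Of 15, 3 had a lower response in EpiLC (1.12% of all genes), namely Fgf5, Otx2 (-1.91) and Cdh2 (-1.19), and 2 a higher one (1.44% of all genes), Wnt8a and Sox3 (1.14). Otx2, a homeobox gene that primes the epiblast and later patterns the forebrain, went from 309.7 to 59.0 in EpiLC and from 56.2 to 40.2 in mESC. Wnt8a, a Wnt ligand of the streak, went from 138 to 45.3 in mESC and from 404 to 525 in EpiLC (1.99).

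Wnt target and feedback genes, all measured with CHIR present, also went both ways. Of 15, 3 had a higher and 2 a lower response in EpiLC, against 1.44% and 1.12% of all genes (median 0.24). Nkd1, a feedback inhibitor of Wnt signalling, went from 344 to 742 in EpiLC and from 74.1 to 44.9 in mESC (1.83), and Notum, an enzyme that inactivates Wnt ligands, had a difference of 1.63. The lower ones were Dkk1 and Apcdd1, a membrane inhibitor of Wnt (-1.72). Of 20 Wnt ligands and modulators, 4 were higher and 4 lower, beside the same shares of all genes. Rspo1, an enhancer of Wnt signals, went from 269 to 1171 in EpiLC and from 189 to 174 in mESC (2.24), while its relative Rspo3 had responses of -1.17 in mESC and -2.23 in EpiLC (-1.06), and Wnt3a had a difference of -1.71.

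The caudal homeobox genes Cdx1 and Cdx2, which Wnt signalling induces in the posterior epiblast, were lower with PD in mESC only. Cdx1 went from 258 to 111 in mESC and from 153 to 202 in EpiLC (1.61), and Cdx2 from 273 to 111 and from 143 to 260.5 (2.16). Hoxb2 went the other way, from 1102 to 219 in EpiLC and from 34.1 to 31.5 in mESC (-2.22). Cdx1, Cdx2 and Hoxb2 were the genes past the limit (2.57% of all genes) among 19 Hox and Cdx genes, of which 10 were under 64 on both mESC arrays.

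Retinoic acid genes were spread widely on both sides of 0. Of 14 measured genes, 4 had a higher and 3 a lower response in EpiLC (median 0.14), against 1.44% and 1.12% of all genes. Besides Stra6, the higher genes were Dhrs3, a retinal reductase, which went from 32.3 to 189 in EpiLC and from 37.2 to 49.5 in mESC (2.14), the retinol dehydrogenase Rdh10 (1.20) and the receptor Rarg (1.07). Besides Cyp26a1, the lower genes were Aldh1a2, which makes retinoic acid (-1.63), and the binding protein Crabp1 (-1.22).

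Guidance, matrix and adhesion genes included several of the larger differences. Of 39 guidance ligands and receptors, 5 had a higher and 4 a lower response in EpiLC, and the counts in this group stand against 1.44% higher and 1.12% lower of all genes. Sema3c, a secreted semaphorin, went from 73.0 to 718 in EpiLC and from 88.1 to 152 in mESC (2.52), and Nrp2, a co-receptor of semaphorins, from 275 to 109 in mESC and from 129 to 208 in EpiLC (2.02). Slit2 and Slit3 were both lower with PD in EpiLC (-1.77 and -1.53), but only Slit2 was higher in mESC (1.00 and -0.42). Of 21 matrix and hyaluronan genes, 4 were higher, among them Has2 and Col18a1 (1.45), and 2 lower, the integrin Itga8 (-2.26) and the laminin chain Lama1, which went from 157 to 278 in mESC and from 82.6 to 36.6 in EpiLC (-1.997). Among 18 cadherin and EMT genes, 3 were lower, Cdh11 (-2.41), Cdh2 and Twist1 (-1.12).

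Lists of other cell types, pathways and metabolism are given beside the 2.57% of all genes past the limit in either direction. Of 14 keratin and trophoblast genes, 2 had a higher and 2 a lower response, the latter Eomes and Ascl2, a factor of trophoblast and of Wnt-driven cells, which went from 181 to 292 in mESC and from 62.3 to 26.1 in EpiLC (-1.94). Of 13 primitive and visceral endoderm genes, 4 were lower (median -0.60), namely Pdgfra, Gata6 (-2.72), Foxa1 (-1.76) and Gata4 (-1.48), which mesoderm or definitive endoderm also express. Amino acid and ER stress genes had a lower response in EpiLC in 12 of 16 cases, as had 11271 of all 22180 genes (median -0.42), and 2 passed the limit, Trib3 (-1.12) and Phgdh (-1.06), both within the limit with a constant of 64. In Notch pathway genes, Dll3, a ligand of the presomitic mesoderm, was lower (-2.21) and the receptor Notch3 higher (1.60), and the other 15 of 17 were within 2-fold. Among LIF and STAT3 genes Bcl3 and Tfcp2l1 were higher (1.16 and 1.11) and Socs2 was lower (-1.03), 3 of 12 in all. Of 16 chemokine and interferon genes, Oasl2 (1.43) was higher besides Cxcl10 and Cxcl11, and the receptor Cxcr4 (-1.65) was lower. Of 13 glycolysis and hypoxia genes, the kinase Pdk1 (1.35) was higher and the phosphofructokinase Pfkp (-1.14) lower, and 11 lay below 0, again beside 11271 of all genes (median -0.32). Pdk1 is an average of 2 probes with differences of 1.74 and 0.95, the second at only 18.1 to 30.3 on the 4 arrays. With a constant of 64, Pdk1 and Pfkp were within the limit (0.90 and -0.94). Germline, cholesterol synthesis and ribosomal protein genes had 0 members past the limit among 13, 12 and 11 measured genes, with medians of -0.01, 0.22 and 0.05.

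**Figure D4:**
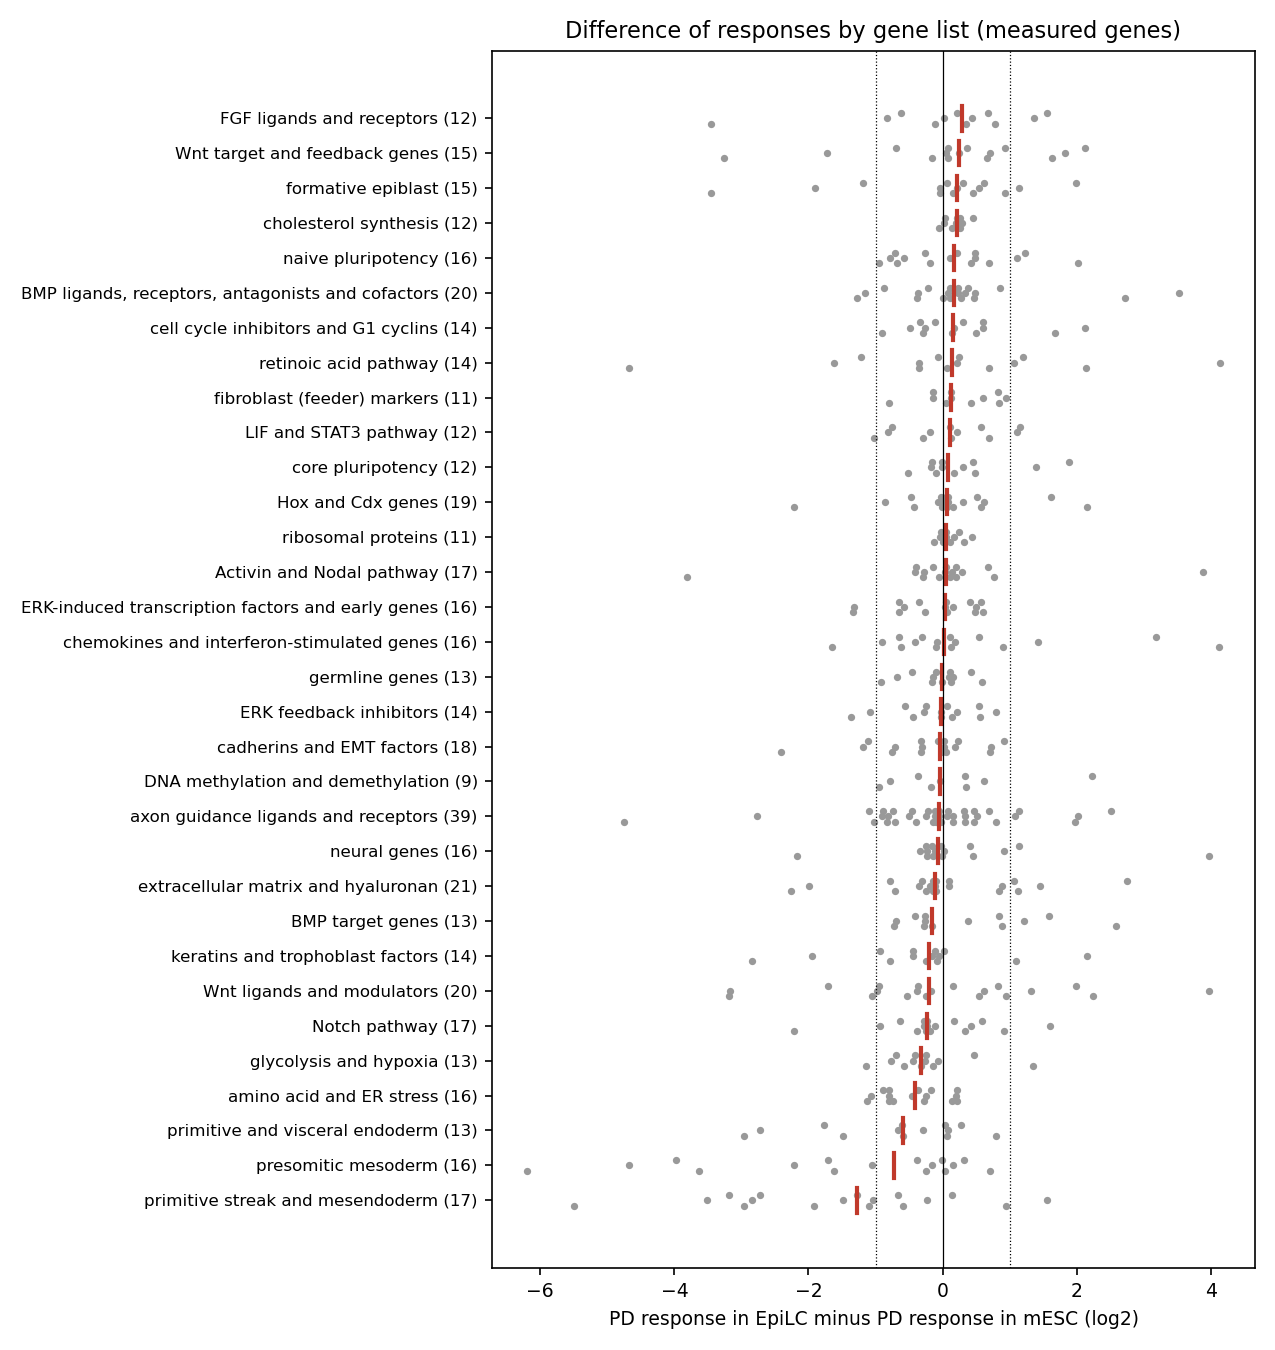
Difference of responses (EpiLC minus mESC, log2) of the measured genes of 32 lists, 1 grey point per gene, with the number of genes in brackets, the list median as a red bar and 2-fold limits as dotted lines. The streak and presomitic lists at the bottom reach from -6.20 upwards with medians of -1.28 and -0.72, while most other medians lie near 0 with single genes far out on either side.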

How the data were processed

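Gene expression in 6 groups was measured by microarray (Affymetrix Mouse Gene 2.0 ST), with 1 array each, and 4 groups entered the comparison. Per the series' design text the authors analysed the arrays with GeneSpring GX 11.5. The deposited values are linear intensities whose normalization is not given in the sources used here. Their lowest value of 16 compresses differences of dim genes. Of 33793 probes, 23521 carried 1 gene symbol, 1814 several and 8458 none in the platform annotation. Log2 intensities of probes with 1 symbol were averaged per symbol (22180 genes, 1082 with several probes), with no filter and no further scaling, in Python 3.11.15 with pandas 2.3.3.

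The difference of responses was (EpiLC with CHIR and PD minus EpiLC with CHIR) minus (mESC with CHIR and PD minus mESC with CHIR), and genes were counted at 2-fold. These 4 arrays leave no residual degrees of freedom, so no test was run. The computation was tested on simulated data. Alternatives were a constant of 4 or 64, quantile normalization, median centring, the brightest probe, and only genes of at least 64 on 1 array or more. For the constants, the lowest intensity of an array was subtracted from all its intensities and 4 or 64 was added, so every value was shifted.

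The 32 lists cover 492 genes, and for 462 a probe with 1 symbol existed. Members and lists were chosen with earlier results of these data known. Named genes were the 15 highest and 15 lowest, up to 8 in each direction among genes at least 2-fold apart in opposite directions, the 6 highest and 6 lowest among those 2-fold in mESC alone, up to 4 per list ranked by absolute difference, and Id3, Has2, Slit2 and Zfp423, passing over predicted, clone and small RNA symbols and genes under 100 on all 4 arrays. Other genes were named after their values had been seen. Promoters came from the RefSeq table of GRCm38.p6, found for 34 of 41 genes searched.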

Additional observations from a re-analysis of the deposited data

Results flagged for a closer look

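In 4 genes the single array pair of one state moved in the opposite direction to that of the other by at least 2-fold each, and the difference was not tested. It was 2.75 for Has2 (-1.25 in mESC and 1.497 in EpiLC), 2.59 for Id3 (-1.15 and 1.44), 2.72 for Zfp423 (-1.35 and 1.38) and -2.77 for Slit2 (1.00 and -1.77), all log2 values. Each gene was measured by 1 probe.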

How the results depend on the processing

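With all intensities shifted to a lowest value of 4 (a constant of 4), 802 genes had a higher and 739 a lower response in EpiLC by at least 2-fold. They held 319 of the 320 and 245 of the 249 of the main setting, and 17 genes went in opposite directions. With a constant of 64 the counts were 143, 114 and 0, with 142 and 111 genes shared, and the cause was not tested. Under quantile normalization, median centring, the brightest probe and the filter on dim genes they were 291 to 333, 222 to 270 and 4. Of 133 named genes, 93 were past 2-fold, and these 93 kept their direction under each of the 6 alternatives. The filter on dim genes could not change them, since named genes reached 100 on 1 array or more. The brightest probe could change only genes with several probes, and median centring shifted all genes by the same amount. The constants of 4 and 64 shift all arrays alike, so they could not reverse genes of 1 probe whose responses had opposite signs. Most named genes were also picked by the size of their difference in the main setting. With a constant of 64, 74 of the 93 stayed past 2-fold, those lost being Spry2, Etv1, Fgf18, Msx2, Bmp8b, Nr0b1, Tfcp2l1, Twist1, Krt7, Sox3, Gata4, Bcl3, Socs2, Aldh1a2, Oasl2, Trib3, Phgdh, Pdk1 and Pfkp, and Has2, Id3, Zfp423 and Slit2 were at 2.20, 1.99, 2.12 and -2.06. Krt7 was within 2-fold under quantile normalization and Socs2 with the brightest probe. The median of the fibroblast list was 0.82 without dim genes. No paired analysis was possible because each group was 1 array. No replicates exist, so the spread between cultures is not known for any value, and 8263 genes were under 64 on all 4 arrays, where signal over background limits what can be seen.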

Other observations

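Probes that carry several gene symbols were left out of the comparison, and 25 of 1814 had a difference of responses of at least 2-fold. The probe listed for Foxb1, a forkhead factor of the neural tube, and a RIKEN transcript went from 33.2 to 136 in EpiLC and from 33.7 to 29.5 in mESC (2.22). The probe listed for Shh, the Hedgehog ligand, and another RIKEN transcript went from 68.2 to 217 in EpiLC and from 59.9 to 55.8 in mESC (1.77). In the other direction, the probe listed for Car14 and Aph1a went from 428 to 82.5 in EpiLC and from 64.5 to 51.0 in mESC (-2.04). The signal of these probes cannot be assigned to 1 gene.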
